A study of Mus musculus with 12 samples.

Results

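Cultured mouse neural progenitor cells (mNPCs) that carry a single working copy of Kmt2a were compared with every culture of the series in which Kmt2a is present at its usual dose. The 3 libraries of Kmt2a+/LSL were set against the other 9 of the 12 libraries, pooled: 3 of Kmt2a+/+, 3 of nes-cre+/- and 3 of nes-cre+/-Kmt2a+/LSL. The members described are the genes for which all 3 Kmt2a+/LSL libraries lay outside the range of all 9 sufficient libraries. They number 62 of the 17076 genes tested, 34 of them lower and 28 higher in Kmt2a+/LSL.

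All cultures came from hippocampi of pups at P0, the day of birth, and were grown in Neurobasal growth medium. The LSL allele holds a loxP-stop-loxP cassette in the first intron of Kmt2a, so Kmt2a+/LSL cells keep a single allele without the cassette. Kmt2a+/+ cells have neither the cassette nor Cre, and nes-cre+/- cells carry the Cre recombinase with both Kmt2a alleles intact. In nes-cre+/-Kmt2a+/LSL cells, Cre under the nestin promoter removes the cassette in cells of the neural lineage before birth. The cassette was thus inherited in 2 of the 4 genotypes, and the nestin-Cre transgene is shared by 6 of the 9 sufficient libraries. Neither the labels nor the methods say which animals or litters the 3 cultures of a genotype came from, and p-values measure the spread between these cultures only. The sufficient group mixes genotypes, and any difference between them counts as its spread.

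KMT2A, also called MLL1, is a histone methyltransferase that deposits methyl groups on lysine 4 of histone H3, a mark of promoters and enhancers in use. It works in a complex with the subunits WDR5, RBBP5, ASH2L and DPY30 and with menin, and it maintains the activity of HOX and other developmental genes once they have been switched on. Its CXXC domain binds DNA with unmethylated CG pairs. Heterozygous loss of function in people causes Wiedemann-Steiner syndrome, in which intellectual disability is common.

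The genes with the 3 smallest p-values were the chromatin enzyme Kmt2a itself, the imprinted signaling adaptor Grb10 and the forebrain transcription factor Dmrt3. Their start regions are printed because of the affinity of the CXXC domain for CG pairs. Each run is the RefSeq window around an annotated transcription start on GRCm38.p6, read 5′ to 3′ along the strand of the gene in 300 bases, with CG pairs in capitals. The Kmt2a window lies at chr9:44881240-44881539 on the minus strand, the 2 Grb10 windows at chr11:12037371-12037670 and chr11:12027922-12028221 on the minus strand, and the Dmrt3 window at chr19:25610287-25610586 on the plus strand.
Kmt2a: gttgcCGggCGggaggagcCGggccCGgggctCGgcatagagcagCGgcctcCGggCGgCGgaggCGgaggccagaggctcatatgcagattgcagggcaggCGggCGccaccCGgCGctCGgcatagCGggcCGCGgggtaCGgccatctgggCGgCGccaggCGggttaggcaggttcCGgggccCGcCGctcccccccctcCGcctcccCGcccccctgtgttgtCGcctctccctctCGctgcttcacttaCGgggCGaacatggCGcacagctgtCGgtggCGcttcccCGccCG
Grb10, upstream start: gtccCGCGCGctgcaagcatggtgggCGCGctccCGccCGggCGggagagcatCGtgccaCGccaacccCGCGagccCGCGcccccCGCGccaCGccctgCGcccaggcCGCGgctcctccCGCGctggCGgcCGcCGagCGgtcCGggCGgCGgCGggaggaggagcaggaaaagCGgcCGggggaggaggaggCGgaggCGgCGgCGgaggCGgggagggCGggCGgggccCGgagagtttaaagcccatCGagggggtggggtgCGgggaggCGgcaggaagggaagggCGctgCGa
Grb10, downstream start: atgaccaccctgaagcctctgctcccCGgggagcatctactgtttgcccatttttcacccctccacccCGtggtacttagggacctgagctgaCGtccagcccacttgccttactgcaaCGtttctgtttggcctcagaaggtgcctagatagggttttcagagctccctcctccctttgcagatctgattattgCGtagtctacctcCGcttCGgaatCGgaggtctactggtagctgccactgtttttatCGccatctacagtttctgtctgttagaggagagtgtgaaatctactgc
Dmrt3: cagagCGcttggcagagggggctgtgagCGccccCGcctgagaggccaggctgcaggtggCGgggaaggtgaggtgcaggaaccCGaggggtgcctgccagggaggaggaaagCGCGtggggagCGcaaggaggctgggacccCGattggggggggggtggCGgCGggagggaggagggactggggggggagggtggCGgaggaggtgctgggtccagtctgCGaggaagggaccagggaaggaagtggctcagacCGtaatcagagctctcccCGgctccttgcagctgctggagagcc

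The Kmt2a window held 36 CG pairs, and 6.23% of all 32851 mouse windows of this length held at least as many. The upstream Grb10 window held 45, a count reached by 1.93% of windows, and the downstream Grb10 window held 9, reached by 45.8%. The Dmrt3 window held 15, reached by 34.6%. A CG reads the same on both strands, and 94.6% of all windows contained at least 1 CG. RefSeq windows were matched for 44 of the 62 members. Among members with a mean normalized count of at least 50, the largest CG count per gene had a median of 20.5 for the 14 matched lower genes and 18 for the 11 matched higher genes, beside 23 for the 9148 matched genes at that level. Nothing about the binding of KMT2A was measured in these libraries.

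Totals of the 12 libraries were 18280008 to 28596919 counts, and 3 counts correspond to 0.105 to 0.164 CPM (counts scaled to the library total). Kmt2a+/+ replicate 1 stood apart, with a median correlation across genes of 0.903 with its own genotype (0.939 to 0.984 for the other libraries) and 12.65% mitochondrial counts. Next came nes-cre+/-Kmt2a+/LSL replicate 1 with 10.3% mitochondrial counts, against 3.96% to 6.88% in the other 10. Without the latter, 45 genes lay below and 38 above, with all 34 lower and 28 higher members among them. Kmt2a+/+ replicate 1 was the lowest sufficient library for 8 of the 13 higher members with a mean of at least 50 and the highest for 5 of the 19 lower ones. Without Kmt2a+/+ replicate 1, 70 genes lay below and 36 above, among them 34 of the 34 lower and 26 of the 28 higher members. By the rule, a member stays outside the range when any sufficient library is left out, apart from shifts in scaling. The numbers of members kept without either library were thus largely fixed in advance and are no separate check. With DESeq2 size factors in place of TMM, 34 of the 34 lower and 21 of the 28 higher members still lay outside the range, and with library totals alone 27 and 23 did. The libraries also differed in Y-linked transcripts: Ddx3y was at 1053 to 1447 normalized counts in the 3 Kmt2a+/LSL libraries, at 960.0 to 1865 in 5 of the sufficient libraries and at 0 in the other 4. Members lie outside both kinds of sufficient library by the rule, and the part of this imbalance in their size was not tested. Among the members, Bcor, Tmem35a and Gm7061 are on chromosome X and none is on Y.

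Kmt2a (ENSMUSG00000002028, chromosome 9 of GRCm38, 44803355 to 44881296) fell in Kmt2a+/LSL, and the genotype labels were checked against it. Its normalized count, the count scaled by edgeR's TMM library sizes, was 3972, 3979 and 3991 in the 3 Kmt2a+/LSL libraries. In Kmt2a+/+ it reached 6916, 7194 and 6720, with 6777, 7427 and 7167 for nes-cre+/- and 6535, 6814 and 6205 for nes-cre+/-Kmt2a+/LSL. All 3 Kmt2a+/LSL libraries lay far below the lowest of the other 9, and the 3 sufficient genotypes overlapped each other. The mean was 3981 ± 9.4 (SD, n = 3) against 6862 ± 370 (SD, n = 9). By edgeR's quasi-likelihood test the log2 difference was −0.79 (SE 0.099) with an adjusted p of 0.0174, or 0.58 times the sufficient level. Against each sufficient genotype in a fit of 4 genotypes, it was −0.80 (SE 0.125) against Kmt2a+/+, −0.84 (SE 0.125) against nes-cre+/- and −0.71 (SE 0.125) against nes-cre+/-Kmt2a+/LSL. These contrasts share the 3 Kmt2a+/LSL libraries. With the 4 genotypes as terms, Kmt2a missed the threshold in the pooled contrast (adjusted p = 0.103). The table sums all transcripts of a gene, so short transcripts that begin before the cassette count as Kmt2a. Other transcripts, mainly those of AC061963.1, hold 2.10% of the 31-base words of Kmt2a. The call was lost without any 1 Kmt2a+/LSL library (adjusted p 0.212 without replicate 1, 0.300 without replicate 2 and 0.313 without replicate 3), any 1 nes-cre+/- library (0.0629, 0.062 and 0.0658) or nes-cre+/-Kmt2a+/LSL replicate 2 (0.063), while the log2 fold change stayed between −0.80 and −0.77. It was also lost without all 3 nes-cre+/- libraries (adjusted p = 1) or all 3 nes-cre+/-Kmt2a+/LSL libraries (0.218). Without Kmt2a+/+ replicate 1 its adjusted p was 0.0027.

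Grb10 (ENSMUSG00000020176, chromosome 11, 11930508 to 12038683) had the smallest p-value of all genes. It encodes an adaptor protein that binds the insulin and IGF1 receptors and restrains their signaling, and it is imprinted, with expression from the paternal allele in neurons and from the maternal allele in most other tissues. Its normalized count was 1882, 2049 and 1522 in Kmt2a+/LSL. In Kmt2a+/+ it reached 5055, 4347 and 3994, with 4491, 4784 and 5373 for nes-cre+/- and 4617, 4240 and 4964 for nes-cre+/-Kmt2a+/LSL. All 3 Kmt2a+/LSL libraries were far below the other 9, with the widest gap of the 32 members with a mean normalized count of at least 50. Grb10 fell to 0.391 times the sufficient level, from 4652 ± 436 (SD, n = 9) to 1818 ± 270 (SD, n = 3), or −1.36 on the log2 scale (SE 0.13) with an adjusted p of 0.00219 by edgeR. It was −1.30 (SE 0.17) against Kmt2a+/+, −1.43 (SE 0.17) against nes-cre+/- and −1.34 (SE 0.17) against nes-cre+/-Kmt2a+/LSL. The 3 sufficient genotypes showed no detectable difference among themselves (unadjusted p = 0.731, edgeR F-test over the 3). Grb10 remained called without any 1 library, with the log2 fold change between −1.46 and −1.24, and lost the call only when all 3 nes-cre+/- libraries (adjusted p = 0.140) or all 3 nes-cre+/-Kmt2a+/LSL libraries (adjusted p = 0.0936) were left out.

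Dmrt3 (ENSMUSG00000042372, chromosome 19, 25610301 to 25623921) encodes a DM domain transcription factor of the dorsal telencephalon, from which the hippocampus forms. Its normalized count was 172, 126 and 110 in Kmt2a+/LSL. In Kmt2a+/+ it reached 279, 354 and 302, with 273, 349 and 354 for nes-cre+/- and 264, 330 and 347 for nes-cre+/-Kmt2a+/LSL. The groups did not overlap, but the gene missed the threshold, at −1.22 on the log2 scale (SE 0.18) and an edgeR adjusted p of 0.0730. The differences from the 3 sufficient genotypes were −1.20, −1.26 and −1.20 (SE 0.23 each), in the order above. It passed without Kmt2a+/+ replicate 1 (adjusted p = 0.0231), with DESeq2's Wald test (9.34e-10), with limma-voom (0.00217), among genes with at least 10 counts in every library (0.0432) and with edgeR's own expression filter (0.049). With any other library left out its adjusted p was between 0.0927 and 0.9999.

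**Figure D1:**
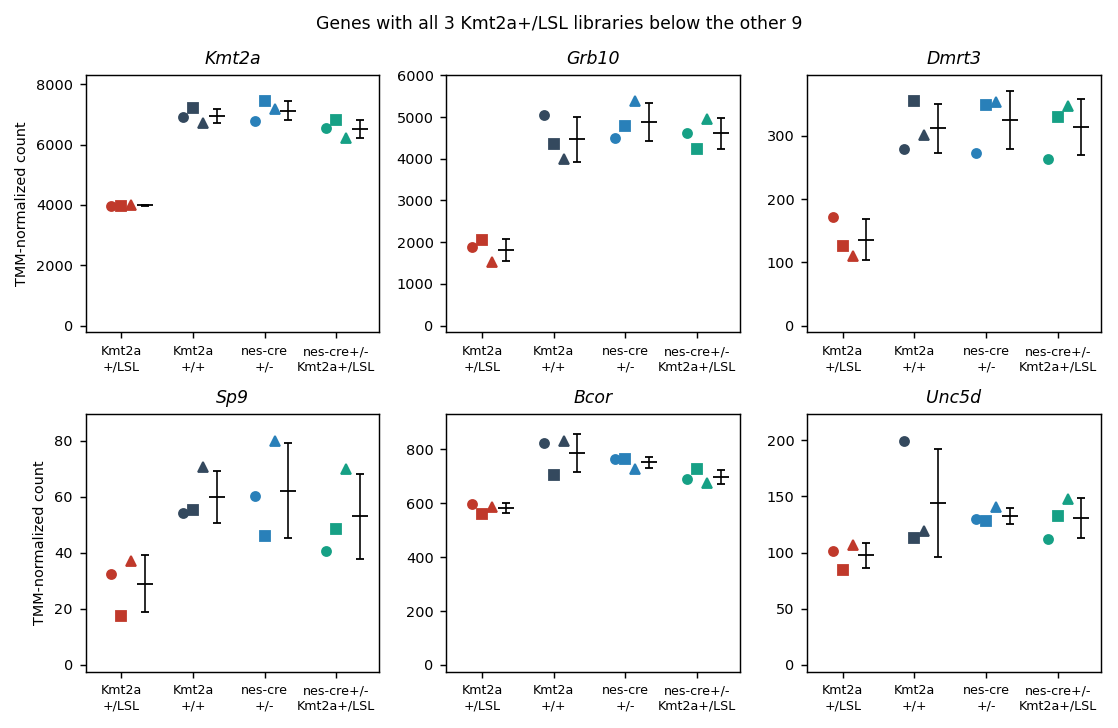
TMM-normalized count (y axes, from 0) in the 12 libraries by genotype (x axes) for 6 genes whose 3 Kmt2a+/LSL libraries lay below the other 9. Circles, squares and triangles are replicates 1, 2 and 3, and the black bar beside them is the mean with the SD (n = 3). The gap is wide for Kmt2a, Grb10 and Dmrt3 and narrow for Sp9, Bcor and Unc5d, and Kmt2a+/+ replicate 1 is the highest library for Unc5d at 199.5.

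At an adjusted p under 0.05, edgeR called 2 genes lower (Kmt2a and Grb10), 0.0117% of the genes tested, and 0 higher, 0%. At an unadjusted p under 0.05 there were 181 lower and 55 higher. These 236 became 436 without Kmt2a+/+ replicate 1, 954 with limma-voom and 112 among genes with at least 10 counts in every library. DESeq2's Wald test called 4 lower, with Dmrt3 and Klf12 added, and 0 higher, and limma-voom called 3 lower (with Dmrt3) and 1 higher (Neil1). Counts differed most when the Wald z-scores were rescaled to an empirical null, whose fitted SD was 0.567. Of the 17076 genes tested, 298 were then called lower and 76 higher. Among them were 30 of the 34 lower and 12 of the 28 higher members, Zfp536, Slitrk1, Retn and AC132444.6 included. The members were chosen on the same values, so this overlap is no separate support for them. Over all genes the median log2 fold change was −0.01. The 34 genes with every Kmt2a+/LSL library below all 9 make up 0.199% of the genes tested, and the 28 above make up 0.164%. With a mean normalized count of at least 50 over the 12 libraries there were 11670 genes, of which 19 lay below (0.163%) and 13 above (0.111%). The other 15 lower and 15 higher genes had lower counts. Apart from Kmt2a, Grb10 and Dmrt3, the other 59 members had adjusted p-values of 0.9999 (edgeR), and for these the values below are a description.

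The margins by which the members cleared the range were small for most genes. Among the 19 lower genes with a mean of at least 50, the log2 gap between the highest Kmt2a+/LSL and the lowest sufficient library had a median of 0.0453, and among the 13 higher genes it had a median of 0.032. At the edge of the rule, Lca5l (42.8 against 43.0 normalized counts), Schip1 (2113 against 2120) and Tshz1 (1317 against 1324) were just inside on the lower side. Ccdc8, Atp5h and Mrpl52 were just outside it, with the highest Kmt2a+/LSL library of Ccdc8 at 90.49 and its lowest sufficient library at 90.46. On the higher side Kif3b, Tbr1 and Adora1 were just inside, and Eaf1, Gdf11 and Ttc9 just outside.

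**Figure D2:**
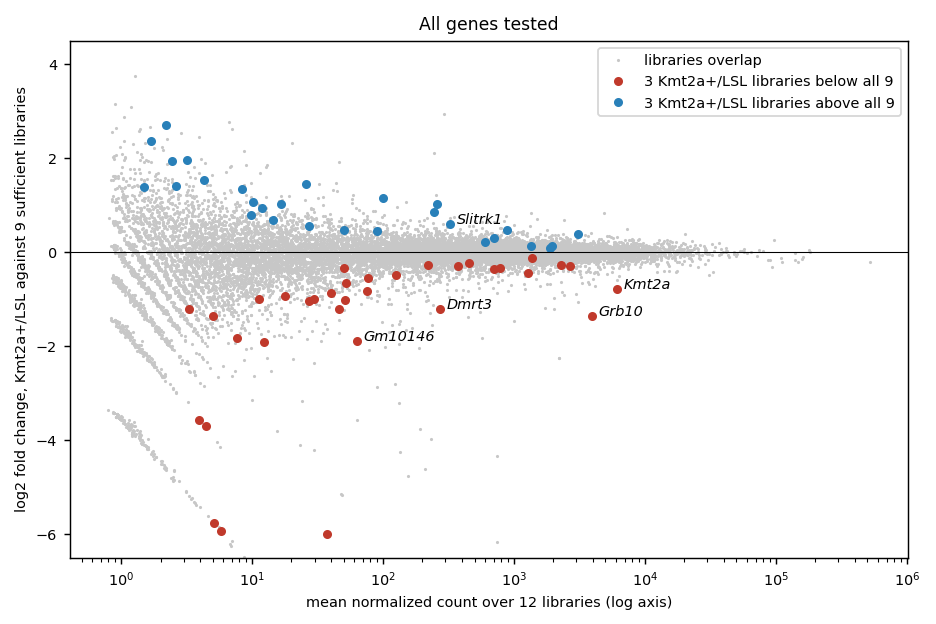
Log2 fold change of Kmt2a+/LSL against the 9 sufficient libraries (y axis) by mean normalized count (x axis, log scale) for all genes tested, with members below all 9 in red and above all 9 in blue. Kmt2a, Grb10 and Dmrt3 are labelled, most other members lie at the edge of the grey cloud, and 22 genes lie below the lower end of the axis. Fold size alone does not set the 3 apart: Epha4, whose libraries overlap, was at 0.282 times the sufficient level, beside 0.391 for Grb10 and 0.430 for Dmrt3.

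Several lower members are transcription factors and corepressors. Sp9, a zinc finger factor of ventral forebrain interneurons, had 32.3, 17.5 and 37.2 normalized counts in Kmt2a+/LSL and 40.6 to 79.9 (median 55.2) in the sufficient libraries, or −1.01 on the log2 scale (SE 0.30). Bcor, the X-linked BCL6 corepressor and a subunit of a Polycomb complex, had 597, 561 and 586 against 675 to 831 (median 727), or −0.36 (SE 0.12). Both were lower in all 3 libraries, with Bcor the tighter. Zfp536, a zinc finger protein that restrains neuronal differentiation, had 23.3, 25.3 and 20.65 against 38.9 to 74.0 (median 53.3), or −1.21 (SE 0.29), with log2 fold changes of −1.24, −1.20 and −1.20 against Kmt2a+/+, nes-cre+/- and nes-cre+/-Kmt2a+/LSL. Its mean count lies just under 50. Foxp1, a forkhead repressor, had 293 to 340 against 351 to 486, and Tshz1, a teashirt zinc finger factor, differed by only −0.12 (SE 0.096).

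The higher members also include transcription regulators. Creb3l1, a membrane-bound factor released under secretory stress, had 110, 104 and 122 normalized counts in Kmt2a+/LSL against 39.9 to 100.5 (median 86.35), or 0.45 (SE 0.23). Mlx, the partner of the glucose-sensing MondoA and ChREBP factors, had 672.5, 669 and 681 against 406 to 660 (median 581.5), or 0.23 (SE 0.14). For both genes the lowest library was Kmt2a+/+ replicate 1. Tbr1, a T-box factor of newborn glutamatergic neurons, had 61.05, 67.1 and 65.0 against 12.8 to 60.95 (median 46.05), with a highest sufficient library almost level with the lowest Kmt2a+/LSL library. Eya3, a phosphatase and coactivator, differed by 0.13 (SE 0.095). Overlapping Psmc3ip shares 17.1% of the 31-base words of Mlx, and no source used here says that the counting used strand.

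Several members encode membrane proteins of cell adhesion, axon guidance or synapses. Fat4, a giant cadherin of planar polarity and Hippo signaling in the embryonic brain, had 2148, 2247 and 2462 normalized counts in Kmt2a+/LSL against 2499 to 3399 (median 2782), or −0.30 (SE 0.12). Pcdhb3, a clustered protocadherin, had 25.1, 39.9 and 44.4 against 45.6 to 74.3 (median 56.1), or −0.66 (SE 0.26). Unc5d, a netrin and FLRT receptor of migrating neurons, had 101.5, 84.7 and 106 against 112 to 199.5 (median 129.5), or −0.48 (SE 0.20). All 3 were lower in Kmt2a+/LSL than in each sufficient library, by a narrow margin. Slitrk1, a leucine-rich membrane protein of neurite growth and synapses, had the smallest p-value of the higher members. Its normalized count was 469, 455 and 393 in Kmt2a+/LSL. It reached 294, 226 and 278 in Kmt2a+/+, with 358, 288 and 275 for nes-cre+/- and 347, 265 and 284 for nes-cre+/-Kmt2a+/LSL, so no sufficient library came up to the lowest of the 3. The log2 difference was 0.60 (SE 0.15) with an edgeR adjusted p of 0.9999, and 0.72 (SE 0.20) against Kmt2a+/+, 0.52 (SE 0.20) against nes-cre+/- and 0.56 (SE 0.20) against nes-cre+/-Kmt2a+/LSL. Cntn5, a contactin of synapse formation, had 20.7, 16.5 and 13.4 against 4.28 to 12.4 (median 7.40), or 1.08 (SE 0.35).

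**Figure D3:**
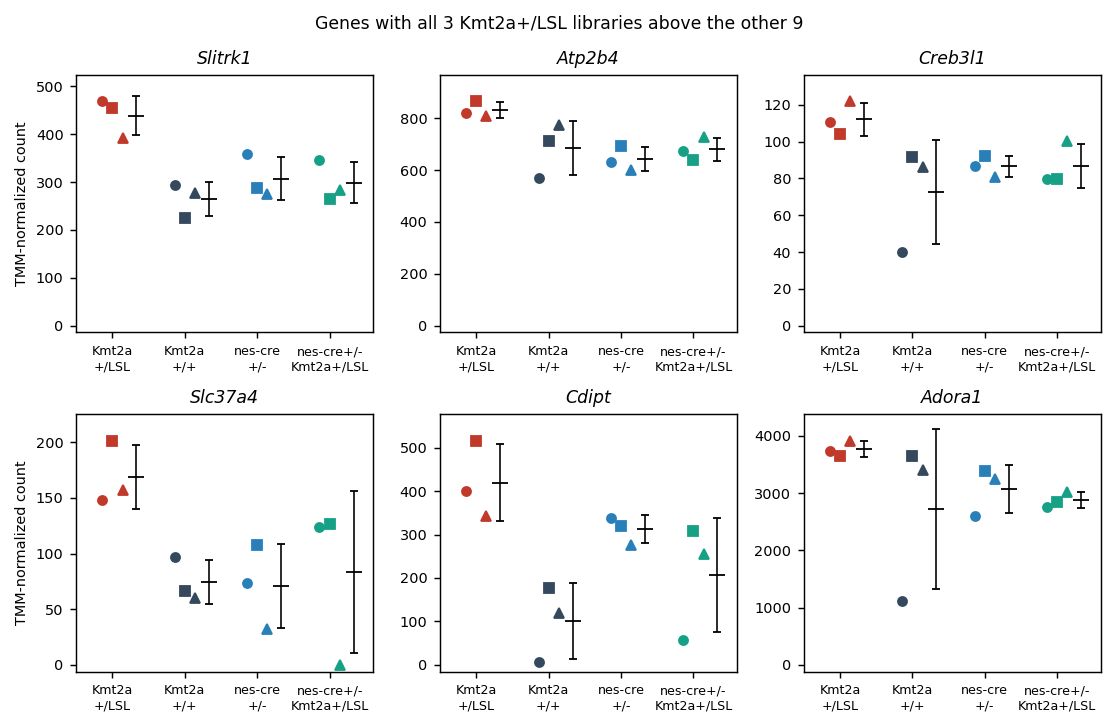
TMM-normalized count (y axes, from 0) in the 12 libraries by genotype (x axes) for 6 genes whose 3 Kmt2a+/LSL libraries lay above the other 9. Symbols are replicates 1, 2 and 3, and black bars are the mean with the SD (n = 3). Slitrk1 and Atp2b4 lie above all 3 sufficient genotypes with no single low library. Creb3l1 and Adora1 have a low Kmt2a+/+ replicate 1, and Slc37a4 and Cdipt have single sufficient libraries near 0.

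Other members encode a pump, a receptor, enzymes or transporters. Atp2b4, a plasma membrane calcium pump, had 820, 865 and 807 normalized counts in Kmt2a+/LSL against 569 to 773 (median 675), or 0.31 (SE 0.12). Adora1, the A1 adenosine receptor, had 3742, 3656 and 3916 against 1109 to 3647 (median 3026), or 0.38 (SE 0.25), and Tm7sf2, a sterol reductase of cholesterol synthesis, had 1185, 1077 and 1078 against 188 to 1046 (median 842), or 0.47 (SE 0.33). In both, Kmt2a+/+ replicate 1 was the lowest of the 9 and lay apart from the others. Mybph shares 18.6% of the 31-base words of Adora1 on the opposite strand. Ensa, an inhibitor of the phosphatase PP2A in mitosis, differed by 0.13 (SE 0.092), and Kif3b, a kinesin motor subunit of cilia, by 0.09 (SE 0.092).

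The widest log2 fold changes among the higher genes with a mean of at least 50 belonged to 3 genes with a sufficient library at or near 0. Slc37a4, the glucose-6-phosphate transporter of the endoplasmic reticulum, had 148, 201 and 157 against 0 to 126.5 (median 74.0), or 1.14 (SE 0.67). Cdipt, the phosphatidylinositol synthase, had 399.5, 516 and 343 against 5.70 to 339 (median 254.5), or 1.02 (SE 0.64). Adck1, a mitochondrial kinase-like protein, had 357, 397 and 346 against 0 to 323 (median 271), or 0.85 (SE 0.71). Kmt2a+/+ replicate 1 was that library for Cdipt and Adck1, and nes-cre+/-Kmt2a+/LSL replicate 3 for Slc37a4. On the lower side, Ndufa6, a subunit of respiratory complex I, had 985, 997 and 1041 against 1074 to 2052 (median 1269), or −0.45 (SE 0.18). St3gal6, a sialyltransferase, had 41.3, 50.6 and 49.55 against 51.8 to 191 (median 70.0), or −0.83 (SE 0.36), and shares 24.8% of its words with Dcbld2. Hfe, a regulator of iron uptake, had 56.6, 55.5 and 60.9 against 62.9 to 123 (median 83.75), or −0.54 (SE 0.23). Tmem35a, a chaperone of acetylcholine receptors, Uvrag, a factor of autophagy, Parp9, an ADP-ribosyltransferase partner of Dtx3l, Schip1 and Lca5l differed by −0.34, −0.24, −0.28, −0.28 and −0.34. Schip1 shares 39.05% of its 31-base words with other genes, mainly the overlapping Iqschfp, and Uvrag 19.35%, mainly with Gm45187, so their counts are uncertain. The processed pseudogene Gm10146 had 16.2, 26.3 and 19.6 against 29.5 to 198 (median 52.9), or −1.90 (SE 0.60), but all of its 31-base words (100%) occur in Lsm7, so its reads cannot be told from those of that gene.

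**Figure D4:**
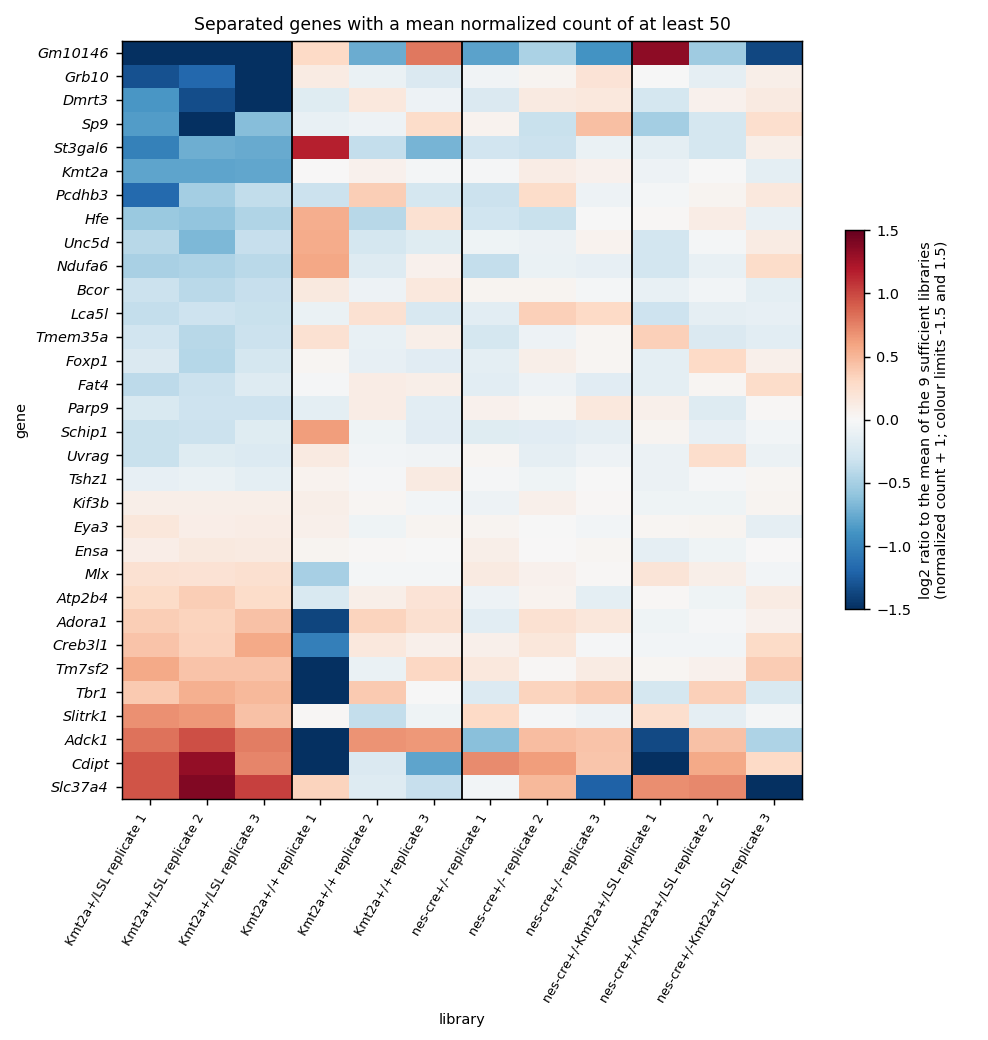
Log2 ratio of each library (columns, by genotype) to the mean of the 9 sufficient libraries for the 32 members with a mean normalized count of at least 50 (rows, by log2 fold change), with colours limited at −1.5 and 1.5. Blue cells fill the 3 Kmt2a+/LSL columns for the 19 lower genes and red cells for the 13 higher ones, and single dark cells in Kmt2a+/+ replicate 1 and in nes-cre+/-Kmt2a+/LSL replicates 1 and 3 mark where sufficient libraries depart from their own group.

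The 30 members with a mean normalized count under 50 had means of 46.1 or less. Besides Zfp536, the lower genes with the smallest p-values were Retn, the hormone resistin, and Akr1d1, a steroid reductase. Retn was at 0 in all 3 Kmt2a+/LSL libraries and between 0.952 and 15.7 normalized counts (median 6.15) in the other 9, at least 2.22-fold lower against a floor of 3 counts per library. Akr1d1 had 0.898, 0 and 0 against 1.91 to 9.83 (median 4.87). AC132444.6, a gene on an unplaced scaffold, was likewise at 0 in all 3 and had 0.952 to 27.1 in the other 9, at least 2.51-fold lower. Thbs4, Fbxo17, Ccdc177, Sftpb, Tnfsfm13, H2-T10, Fer1l6, Gm4691, Gm14494, Gm6767 and Gm17194 completed the lower side. Of these, Gm4691 shares 85.8% of its words with other genes, mainly Gapdh and its copies, Gm14494 85.9% (Tomm20), Tnfsfm13 73.8% and H2-T10 64.2%, so their counts are uncertain. On the higher side the smallest p-values belonged to Fyb, an adaptor of T cells, with 6.29, 8.76 and 7.23 against 0 to 3.28, Rasgef1c, with 8.98, 3.89 and 6.19 against 0 to 3.29, and Cntn5. Gm7061, P2rx1, Chrm5, Ceacam18, Ang, Psors1c2, Hspb9, Ctf2, D130040H23Rik, Slc2a4, Gpr3 and Gm10020 (94.7% shared, Rpl15) completed it. At such counts a few reads decide on which side of the range a library falls. Among genes of low count, pseudogenes made up 33.3% of the 15 lower and 13.3% of the 15 higher, beside 18.5% of the 5406 genes tested at that level.

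The 3 sufficient genotypes were compared with each other in a test of the differences among them. It was made in the fit of all libraries, so the Kmt2a+/LSL libraries still entered its estimate of spread. The edgeR F-test over the 3 genotypes had an unadjusted p under 0.05 for 215 genes (1.26%) and called 1 gene, Nek7. The 215 became 1288 without Kmt2a+/+ replicate 1, 355 without replicate 2 and 460 without replicate 3. Without any other single sufficient library it was 152 to 252, and in a fit of the 9 sufficient libraries alone 145. Of the members, 0 of the 34 lower and 1 of the 28 higher (Gm10020) had an unadjusted p under 0.05 by edgeR. The median p was 0.601 for the lower and 0.666 for the higher members, beside 0.689 for all genes tested. Genes that vary widely among the 9 libraries are less likely to meet the rule, so these shares are a description of the members and not a separate result.

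Members among other genes of KMT2A biology were counted beside the 62 members and 236 genes at an unadjusted p under 0.05 among all 17076, shares at which lists of this size would hold few or none. Of 20 KMT2 enzymes and COMPASS subunits, only Kmt2a lay outside the range or had an unadjusted p under 0.05. Kmt2b and Kmt2c, related methyltransferases, differed by 0.09 (SE 0.33) and −0.17 (SE 0.11), and the median of the list was 0.02. Of 28 HOX, MEIS and other genes known to depend on KMT2A, 16 were tested, and 0 were members or had an unadjusted p under 0.05 (edgeR), too few genes to set that count apart from all genes. Of these 16, 11 had a positive and 5 a negative log2 fold change, with a median of 0.06. Meis1, a HOX cofactor, had a log2 fold change of −0.09 (SE 0.14) and Meis2, of the same family, −0.28 (SE 0.19). Of the 22 telencephalic and midbrain-hindbrain patterning factors, 20 had a negative log2 fold change, beside 8910 of all 17076 genes, with a median of −0.13 beside −0.01. Of these, 3 had an unadjusted p under 0.05, beside 181 lower genes among all 17076, all of them lower: Dmrt3, and the midbrain homeobox genes En1, with 16.2 to 24.8 against 18.1 to 63.3, and En2, with 35.0 to 49.55 against 46.5 to 87.9. En2 was kept out of the members by nes-cre+/-Kmt2a+/LSL replicate 1 alone.

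Grb10 was the single member among the imprinted genes, and 0 of the genes listed for insulin and IGF receptor signaling, a list that does not hold Grb10, were members, beside 62 of all 17076. Of 46 imprinted genes, 35 were tested, with 22 negative and 13 positive log2 fold changes and a median of −0.03. Mest, a hydrolase gene expressed from the paternal allele, had 2251 to 3969 normalized counts against 2850 to 5603, and Plagl1, a zinc finger regulator of imprinted genes, 164 to 255 against 189 to 351. Their ranges overlapped, as did that of Cdkn1c, a cell cycle inhibitor (112 to 188 against 124 to 331). Of the 17 genes of insulin and IGF receptor signaling, 0 had an unadjusted p under 0.05 by edgeR, beside 236 of all 17076, with Igf1r at −0.14 (SE 0.11), Irs1 at −0.24 (SE 0.18) and a median of −0.02. No insulin pathway activity was measured.

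Of the 33 axon guidance ligands and receptors, 1 was a member (Unc5d), and 3 had an unadjusted p under 0.05, all lower, beside 62 members and 181 lower genes at that p among all 17076. Of the 33, 19 had a positive log2 fold change, and the median was 0.01. The 3 lower genes were Unc5d, Slit2, a repellent ligand, with 353 to 445 against 437.5 to 773, and Epha4, an ephrin receptor, with 65.0 to 425 against 81.0 to 1498. Of the 32 neuron adhesion and synapse genes, 2 were members (Slitrk1 and Cntn5) and no others had an unadjusted p under 0.05, beside 62 members and 236 genes at that p among all 17076, with a median of −0.06. Of the 22 cell cycle genes, 17 had a positive log2 fold change, beside 8166 of all 17076, with a median of 0.09, and 0 had an unadjusted p under 0.05 by edgeR. Some rested on 1 high Kmt2a+/LSL library, as Pcna (2994, 3078 and 5668, sufficient median 3381) and Ccnb1 (3400, 3407 and 5674, sufficient median 3585). For Cdk1 and Ccnb2 the Kmt2a+/LSL median was above the sufficient one. The 15 immediate early and heat shock genes had a median of 0.32, with 11 positive (8166 of 17076 over all genes) and none at an unadjusted p under 0.05. Egr1, an activity-induced factor, was at 3193, 3242 and 15590 across the Kmt2a+/LSL libraries, so 1 library carried its difference. Fos, Junb and Ier2 also had 1 high Kmt2a+/LSL library (1165, 398.5 and 982). Their Kmt2a+/LSL medians (399.5, 113 and 408) were below the sufficient medians (416, 148 and 456), while those of Jun, Arc and Atf3 were above. Of the 13 interferon response genes tested, none had an unadjusted p under 0.05, with a median of −0.06, and of the 3 metallothioneins, which bind zinc and copper, Mt3 had (3886 to 4795 against 4279 to 10380).

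**Figure D5:**
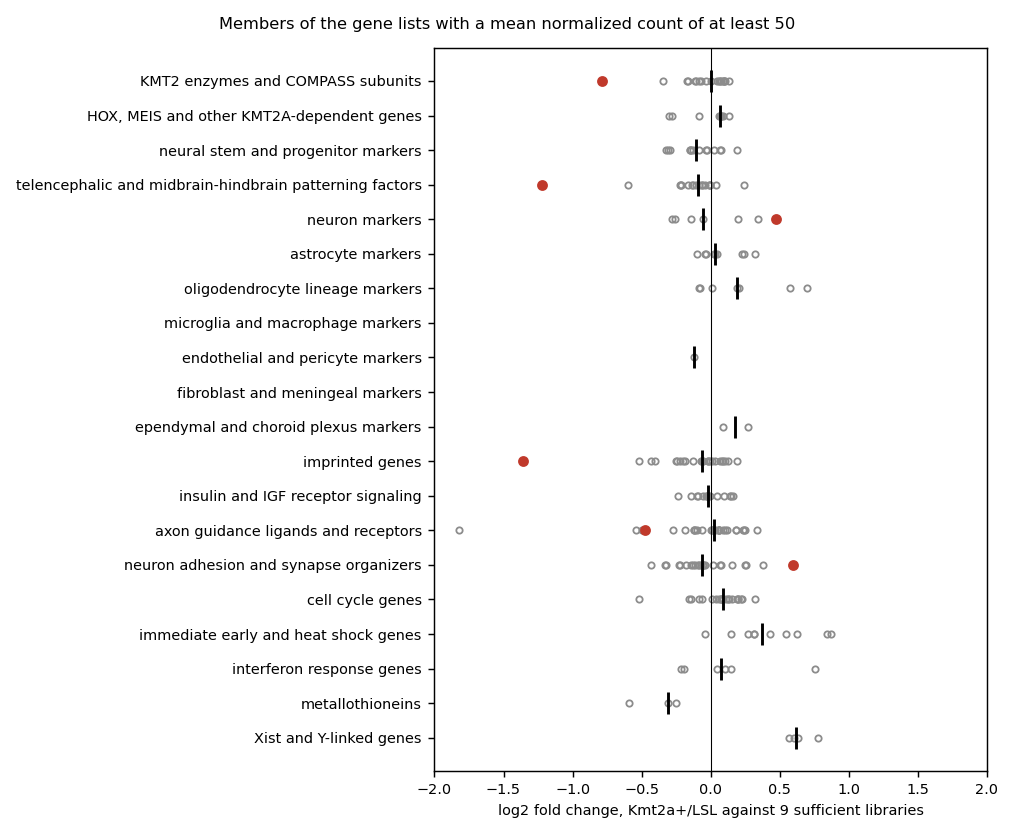
Log2 fold change of Kmt2a+/LSL against the 9 sufficient libraries (x axis) for the genes of each list (rows) with a mean normalized count of at least 50, with medians as black bars and members in red. Members are single genes in 6 of the lists, and the patterning and imprinted lists each have 1 gene, Dmrt3 and Grb10, far to the left of the rest.

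Markers of the labelled cell type were present in all libraries, and the 14 neural stem and progenitor markers summed to 8232 to 9741 CPM in Kmt2a+/LSL and 8124 to 14920 in the sufficient libraries. Oligodendrocyte lineage markers reached 3963 to 4848 against 1277 to 5875, astrocyte markers 4683 to 6516 against 4100 to 7856 and neuron markers 1305 to 1552 against 1037 to 1939. Microglia, endothelial, fibroblast and ependymal markers were at 36.7 CPM or less in every library. Of the genes in these lists, only Tbr1 was a member, on the higher side. Of the 15 neuron markers tested, 10 had a negative log2 fold change, beside 8910 of all 17076 genes, with a median of −0.26. Several of the 15 had few counts, with Stmn2, Slc17a7 and Neurod6 at 7.18 normalized counts or less in every library, which limits this median. The medians of the progenitor, astrocyte and oligodendrocyte lists were −0.11, 0.03 and 0.19. In these bulk samples, fewer cells of a type and less RNA per cell cannot be told apart.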

How the data were processed

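Poly(A) RNA of 12 mNPC cultures was sequenced. The authors pseudoaligned the reads to the mm10 (GRCm38) transcriptome with kallisto 0.48.0 and deposited estimated counts per gene, as whole numbers without normalization, which were used as they are (the tests had been planned for such counts). Reads assigned to shared sequence depend on kallisto's estimate. Genotypes and replicate numbers are those of the labels. Symbols were matched for 18718 of the 18911 genes, and coordinates were taken from GENCODE M21. The filter kept the 17076 genes detected in at least 2 libraries whose counts summed to more than 10. Counts were normalized by TMM and tested in edgeR 4.0.16 (R 4.3.3) with the quasi-likelihood F-test and Benjamini-Hochberg adjustment, with Kmt2a+/LSL against the rest as the only term. A gene was a member when its Kmt2a+/LSL libraries lay outside all 9 others. The gap used a pseudocount of 0.5. The 12 members per direction with the smallest p and a mean normalized count of at least 50 were named, with Kmt2a, members of the lists with up to 4 others, and 3 members per direction of lower count. Other members are listed by name, and further genes were named after their values were seen. The members and lists were chosen with earlier results of these data known. Alternatives were DESeq2 1.42.0, limma 3.58.1, other scalings and filters, the replicate block, and libraries left out. The rescaled null stands in for fdrtool, which the authors applied to DESeq2's results. Leaving out whole genotypes was chosen after seeing the data. Intervals of depth cover counting error only. The scripts were tested on simulated data. Isoforms were not analysed here. Some genes of the lists are not reported here.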

Additional observations from a re-analysis of the deposited data

Results flagged for a closer look

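Among the 9 sufficient libraries, a single library lay far from the others, by Dixon's 95% criterion, in 10 of 41 sets of values examined, where chance gives about 1 in 20 for unselected, independent sets. These sets are neither, as 7 of the 10 are members, whose rule uses the same values, and most share a library, so that rate is no yardstick for them. Kmt2a+/+ replicate 1 was that library in 9 of them. It was the highest for Unc5d (199.5 normalized counts) and St3gal6 (191) and for the summed neural stem and progenitor markers (14920 CPM). It was the lowest for Creb3l1 (39.9), Mlx (406.1), Adora1 (1109), Tm7sf2 (188.1) and Tbr1 (12.83 normalized counts) and for the summed oligodendrocyte lineage markers (1277 CPM). The remaining set was the summed astrocyte markers, with Kmt2a+/+ replicate 2 highest at 7856 CPM.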

How the results depend on the processing

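The 2 lower calls became 4 with DESeq2's Wald test, 1 with 4 genotypes as terms, and 0 without all nes-cre+/- or all nes-cre+/-Kmt2a+/LSL libraries. The Wald test rescaled to an empirical null called 298 lower and 76 higher, and limma-voom called 1 higher. Leaving out each library gave 1 to 3 lower calls and 0 to 0 higher. Genes below all sufficient libraries numbered 19, and genes above 13, at a mean normalized count of at least 50; with at least 10 counts in every library 6 lay above. Leaving out each library gave 37 to 127 below and 32 to 141 above. Counts moved by over 1.5 times without Kmt2a+/+ replicate 1 (70 below), 2 (46 above) or 3 (59 and 50), without Kmt2a+/LSL replicate 1 (81 and 106), 2 (127 and 141) or 3 (124 and 100), and without nes-cre+/-Kmt2a+/LSL replicate 3 (43 above). Without all Kmt2a+/+ libraries there were 151 and 115, without all nes-cre+/- 68 and 74, and without all nes-cre+/-Kmt2a+/LSL 75 and 71, as a rule over fewer libraries is met by more genes. Among the sufficient genotypes, DESeq2's likelihood ratio test called 5 genes, and 0 were called with DESeq2 size factors, 0 in a fit of the 9 libraries alone and between 0 and 1 when single libraries were omitted. The cause of the other changes was not tested. No source says what same-numbered libraries share. Their deviations had a mean correlation of 0.084 over 18 pairs, 5 of them over 0.1, against −0.04 over 36 differently numbered pairs, 4 of them over 0.1, and 6 of the 12 libraries correlated best with their own number. The fit with the replicate block called 2 genes, as without it, and 0 among the sufficient genotypes, and values centred per replicate number for the block gave 57 genes below and 49 above, among them 28 of the 34 lower and 14 of the 28 higher members. None of the 30 genes refitted under the alternatives changed direction. All 30 are members, whose separation largely fixes their direction in advance, so this is no separate check. Other named genes were not refitted. Low counts limit the 30 members with a mean under 50.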
